A study of Mus musculus with 26 samples.

Results

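The genes described here encode fibronectin (Fn1), periostin (Postn), tenascin C (Tnc), the CCN proteins 1 and 2 (Ccn1 and Ccn2), thrombospondin 1 (Thbs1), the lysyl oxidases Lox, Loxl1 and Loxl2, and osteopontin (Spp1). They were chosen by name as secreted proteins of the extracellular matrix that are followed in cardiac remodelling, with earlier results of these data known. They are 10 of the 56941 genes listed in the count matrix. The abundance filter kept 9 of them among the 15357 genes tested, and Spp1 did not pass it. RNA was sequenced from the left ventricle of 26 mice in 4 groups: 6 control males (Ctrl males), 7 knockout males (cKO males), 6 control females (Ctrl females) and 7 knockout females (cKO females). All groups carried floxed alleles of Ppp2r2a, which encodes B55α, a regulatory subunit of protein phosphatase 2A. Controls had the genotype aMHC-Cre0/0-Ppp2r2aL/L and carried no Cre, and knockouts had the genotype aMHC-CreTg/0-Ppp2r2aL/L, in which the α-myosin heavy chain promoter drives Cre in cardiomyocytes. Ventricles were taken between 12 and 16 weeks of age, after an osmotic minipump had delivered saline for 2 weeks, so the saline and the surgery are shared by every group. A group with the Cre transgene alone was not analysed here, so Cre and the loss of Ppp2r2a cannot be told apart. The strain label reads C57BL/6N, whereas the design text describes a mixed background with C57BL6/N floxed mice and FVB Cre mice.

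Fibronectin is assembled by cells into fibrils on which collagen, tenascin C and periostin are laid down, and lysyl oxidases then crosslink collagen and elastin. In the heart these proteins come mainly from fibroblasts and other non-myocytes, although cardiomyocytes also make CCN2 and several others. Ccn1 and Ccn2 are known early targets of the YAP/TEAD and serum response factor pathways, and Ccn2, Fn1, Postn and Loxl2 respond to TGF-beta in many cells. Osteopontin and tenascin C are low in the healthy adult ventricle and are best known from injury.

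Promoter windows, from 250 bases before to 50 bases after the start site, were taken from a RefSeq table on build GRCm38.p6. They were found for 4 of the 10 genes (7 windows): Postn, Ccn1, Tnc and Spp1. The 250 bases before the start are shown for Postn and Tnc, the pair whose levels followed each other most closely across mice, and for Ccn1, which followed none of the other genes. For Postn and Tnc, each of which has 2 windows, the window shown is the downstream one of Postn and the upstream one of Tnc. Each reads 5′ to 3′ on the strand of the gene, and capitals mark a match to a searched motif.
Postn, plus strand, chr3:54360857-54361106: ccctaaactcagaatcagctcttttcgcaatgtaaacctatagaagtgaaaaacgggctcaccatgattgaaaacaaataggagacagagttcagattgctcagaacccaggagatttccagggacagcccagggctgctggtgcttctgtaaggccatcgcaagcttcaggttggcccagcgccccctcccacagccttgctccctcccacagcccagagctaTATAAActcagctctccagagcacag
Tnc, minus strand, chr4:64047016-64047265: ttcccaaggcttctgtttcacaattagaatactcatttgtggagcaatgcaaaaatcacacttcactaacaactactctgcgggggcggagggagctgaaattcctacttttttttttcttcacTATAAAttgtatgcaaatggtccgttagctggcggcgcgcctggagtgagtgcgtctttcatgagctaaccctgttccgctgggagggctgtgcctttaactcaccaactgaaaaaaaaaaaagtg
Ccn1, minus strand, chr3:145649986-145650235: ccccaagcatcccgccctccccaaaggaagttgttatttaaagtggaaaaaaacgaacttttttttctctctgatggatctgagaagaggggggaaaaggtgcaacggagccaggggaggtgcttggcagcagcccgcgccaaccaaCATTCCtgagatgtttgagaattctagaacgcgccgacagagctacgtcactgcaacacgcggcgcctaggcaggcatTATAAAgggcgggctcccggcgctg
The letters searched, on both strands of the 300-base windows, were GGAATG for TEAD proteins, TGANTCA for AP-1, GTCTAGAC for the SMAD palindrome, CAGAC for the SMAD box, TATAAA for the TATA box, and the CArG box of serum response factor. No match overlapped one of another motif. Postn had TATAAA from -26 to -21 and Ccn1 had it from -25 to -20, counted from the start site, where 13.6% of all 32851 windows held these letters anywhere. In the Tnc window TATAAA lay from -126 to -121. Ccn1 also had CATTCC, the TEAD letters on the opposite strand, from -103 to -98, and 14.7% of all windows held them. A SMAD box (49.6% of all windows) lay downstream of the start in the Ccn1 and Tnc windows, outside the bases printed. In the other Postn window, which is not printed, a SMAD box lay from -191 to -187. The other Tnc window, also not printed, overlaps the one shown. It had SMAD boxes from -70 to -66 and from 40 to 44, and TATAAA from -205 to -200. The AP-1 letters (7.81% of all windows), the SMAD palindrome (0.213%) and the CArG box (1.63%) were not in these windows. These matches describe letters and are not sites of binding.

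Libraries held 14.4 to 30.9 times 1e6 counts, so 3 counts, the smallest level taken as detected, corresponded to 0.0928 to 0.210 CPM (counts per 1e6 counts, on totals scaled by the trimmed mean of M-values). Ppp2r2a lay at 24.1 to 47.7 CPM in Ctrl males, 11.8 to 16.2 CPM in cKO males, 36.2 to 46.7 CPM in Ctrl females and 9.96 to 16.2 CPM in cKO females, so that genotypes did not overlap in either sex. Ctrl males 3 and 6 had less Ppp2r2a than the other Ctrl males. The labels number the samples of a group as replicates without saying that each is a separate mouse, which is assumed here, and p-values measure the spread between these samples. Reads came from whole ventricle, where fewer cells of a type and less RNA per cell cannot be told apart.

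Per kilobase of the longest transcript, the order of the mean levels was the same in all 4 groups: Ccn2, Ccn1, Loxl1, Postn, Fn1, Loxl2, Thbs1, Lox, Tnc and Spp1. In Ctrl males Ccn2 averaged 31.2 CPM per kilobase (range 18.1 to 53.6) and Ccn1 averaged 25.5 (19.6 to 31.6), and these ranges overlapped. Loxl1, the lysyl oxidase linked to elastic fibres, followed at 12.5 CPM per kilobase (10.3 to 16.1), apart from its neighbours on either side. Postn stood at 6.58 CPM per kilobase (4.69 to 8.47), Fn1 at 4.61 (3.88 to 5.52) and Loxl2 at 3.21 (2.58 to 4.03), each overlapping the next. Thbs1 had 1.71 CPM per kilobase (0.819 to 2.50) and Lox 0.833 (0.545 to 1.02), also with overlap. Tnc lay at 0.163 CPM per kilobase (0.0935 to 0.200), below every value of Lox and overlapping Spp1 at 0.0514 (0 to 0.123). Exons of 6 of the 10 genes (Ccn2, Fn1, Lox, Loxl2, Thbs1 and Tnc) overlap a gene on the opposite strand in GENCODE M21, and those of Spp1 overlap another gene on its own strand. The libraries were stranded, but whether counting used strand is not given in the sources used here.

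**Figure D1:**
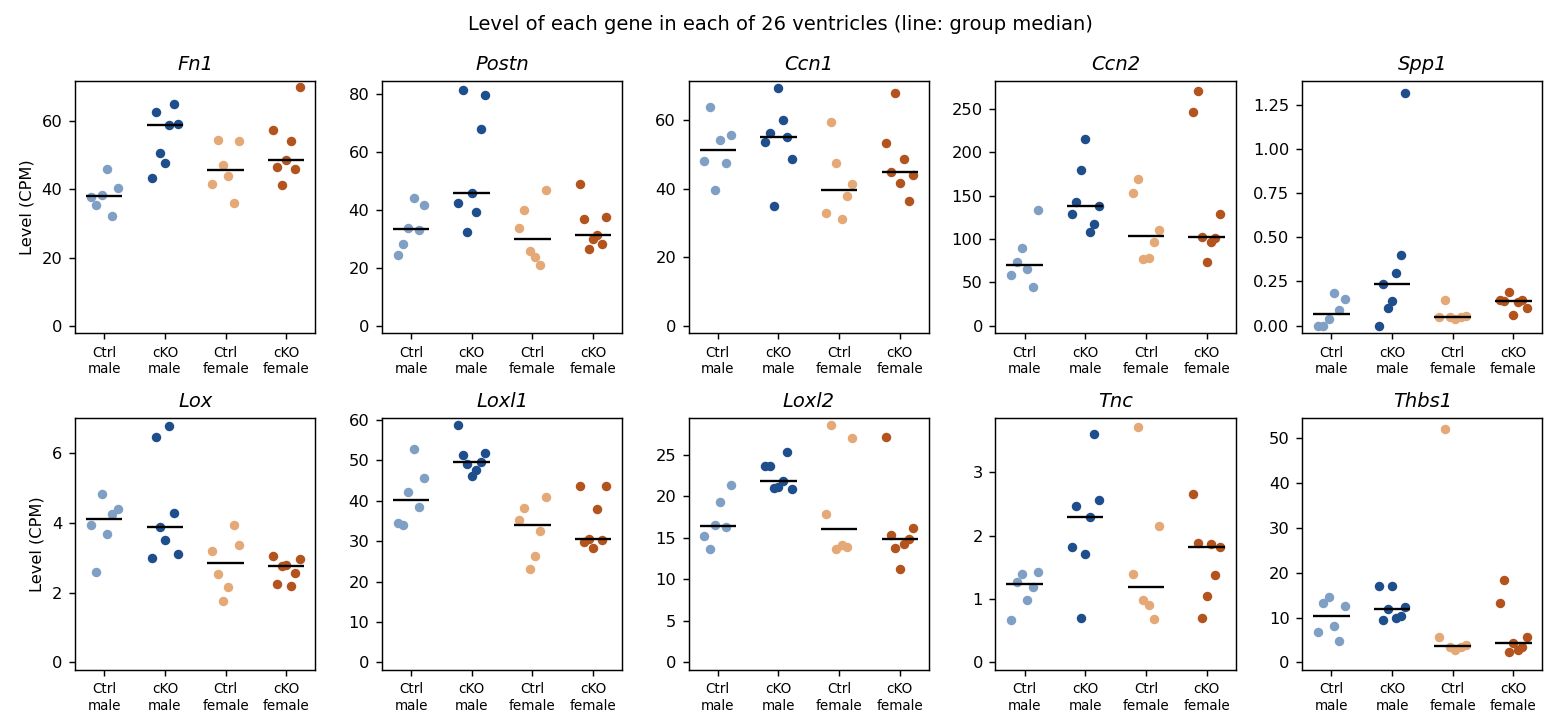
Level of each of the 10 genes in every mouse, in CPM on linear axes, with points for single mice, colours for the 4 groups and a line at each group's median. For Fn1, 6 of 7 cKO males lie above the highest Ctrl male, and for Thbs1 Ctrl female 2 stands alone at 52.1 CPM.

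In males, 1 of the 9 tested genes, Fn1, rose in cKO at an adjusted p under 0.05 (edgeR quasi-likelihood test over all genes), where 0.443% of all genes tested were called in either direction and 0.182% were called higher. All 9 had a fold change above 0, as did 50.3% of all genes, and their median log2 change was 0.40 against 0.00 over all genes. At an unadjusted p under 0.05, 6 of the 9 (Fn1, Postn, Ccn2, Loxl1, Loxl2 and Tnc) were higher, where 6.11% of all genes were. DESeq2, which gave Lox and Tnc no adjusted p in males, and limma voom each called 1 of the 9 as well. DESeq2 called 3.98% of the 9700 genes to which it gave an adjusted p, and limma voom 1.37% of all genes. In females, 0 of the 9 were called by edgeR, DESeq2 or limma voom, and 0 had an unadjusted p under 0.05 in edgeR. The background in females was 0.0326% of genes called by edgeR, 0.0586% by DESeq2 and 0.026% by limma voom, and 5.15% at an unadjusted p under 0.05. The female fold changes were above 0 for 6 of the 9, as for 51.1% of all genes, with a median of 0.10 on the log2 scale against 0.00 over all genes.

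Fibronectin had the clearest separation among the matrix scaffold genes. Fn1 ran from 32.3 to 45.9 CPM in Ctrl males (median 38.1) and from 43.2 to 65.2 CPM in cKO males (median 58.8). In males 6 of the 7 cKO values lay above the highest control, and all 7 lay above the control mean. The groups averaged 38.4 ± 4.63 CPM (SD, n = 6) and 55.4 ± 8.21 CPM (SD, n = 7), a log2 change of 0.53 (SE 0.12; edgeR, adjusted p = 0.0397, rank 48 by p among all genes). In females the range was 35.9 to 54.6 CPM in Ctrl (median 45.6) and 41.3 to 69.9 CPM in cKO (median 48.5), with wide overlap. The female log2 change was 0.17 (SE 0.12; edgeR, adjusted p = 0.975). Averaged over the sexes Fn1 rose by 0.35 on the log2 scale (SE 0.08; edgeR, adjusted p = 0.0313), the 1 member called of 9 in that comparison, where 1.33% of all genes were called. The male call was lost when any of 8 of the 13 males was left out (Ctrl males 1, 2, 3 and 5 and cKO males 2, 5, 6 and 7), with edgeR adjusted p between 0.0545 and 0.123 and a log2 change between 0.48 and 0.53. Without Ctrl males 3 and 6 it was 0.55 (edgeR adjusted p = 0.0746) and without a filter on low counts 0.53 (0.101). With an offset for length and GC content the male log2 change was 0.44 (0.108), and with a block on replicate number 0.48 (0.0579). None of these passed the threshold. The call on the mean over the sexes was lost when any of 10 of the 26 mice was left out (Ctrl males 1, 2 and 5, cKO males 2 and 6, Ctrl females 1, 4 and 5 and cKO females 1 and 5), with edgeR adjusted p up to 0.0681. That call was also lost with the block on replicate number (0.30, edgeR adjusted p = 0.0772).

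Periostin binds collagen and fibronectin and marks activated cardiac fibroblasts. Postn ran from 24.5 to 44.3 CPM in Ctrl males (median 33.6) and from 32.2 to 81.6 CPM in cKO males (median 45.7). The cKO males were uneven: 4 of 7 lay above every control, and the 3 highest (mice 2, 6 and 7) stood at 68.1 CPM or more while the other 4 lay between 32.2 and 45.7. The log2 change was 0.69 (SE 0.23), with an unadjusted p of 0.00565 and an edgeR adjusted p of 0.156. In females Postn ran from 21.0 to 46.8 CPM in Ctrl and from 26.6 to 49.2 CPM in cKO, with medians of 29.9 and 31.3 CPM and a log2 change of 0.10 (SE 0.23; edgeR, adjusted p = 0.993).

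Tenascin C, an oligomeric glycoprotein that loosens cell adhesion to fibronectin, was near the lower end of what these libraries measure. Tnc ran from 0.665 to 1.42 CPM in Ctrl males (median 1.23) and from 0.705 to 3.59 CPM in cKO males (median 2.30). Of the 7 cKO males 6 lay above every control, and mouse 3 at 0.705 CPM lay near the lowest control. The log2 change was 0.91 (SE 0.35), with an unadjusted p of 0.0137 and an edgeR adjusted p of 0.228. In females the range was 0.689 to 3.71 CPM in Ctrl (median 1.19) and 0.694 to 2.65 CPM in cKO (median 1.81). The female log2 change was 0.00 (SE 0.35), with the highest value of all in Ctrl female 2.

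The 2 CCN genes, whose products modulate integrin and growth factor signalling, did not have like values. Ccn1 lay between 39.6 and 63.8 CPM in Ctrl males (median 51.2) and between 35.0 and 69.6 CPM in cKO males (median 55.2), with a log2 change of 0.07 (SE 0.16; edgeR, adjusted p = 0.899). In females Ccn1 lay between 31.3 and 59.5 CPM in Ctrl (median 39.7) and between 36.5 and 67.9 CPM in cKO (median 44.8), with a log2 change of 0.21 (SE 0.16; edgeR, adjusted p = 0.975). The groups overlapped widely in both sexes. Ccn2 ran from 44.99 to 133.5 CPM in Ctrl males (median 69.8) and from 108.4 to 215.1 CPM in cKO males (median 138.5). All 7 cKO males lay above the control mean and 4 lay above the highest control, which was Ctrl male 6. The log2 change was 0.92 (SE 0.31), with an unadjusted p of 0.0066 and an edgeR adjusted p of 0.165. In females Ccn2 ran from 77.5 to 169.7 CPM in Ctrl (median 103.7) and from 73.8 to 271.0 CPM in cKO (median 101.9), so the medians were close and the upper end was set by cKO females 1 and 2 at 246.2 and 271.0 CPM. The log2 change was 0.35 (SE 0.30; edgeR, adjusted p = 0.975).

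Thrombospondin 1 releases TGF-beta from its latent complex and binds CD36 and CD47. Thbs1 lay between 4.79 and 14.6 CPM in Ctrl males (median 10.3) and between 9.48 and 17.1 CPM in cKO males (median 12.0), with a log2 change of 0.33 (SE 0.61; edgeR, adjusted p = 0.873). Among Ctrl females mouse 2 stood at 52.1 CPM, and the other 5 lay between 2.84 and 5.68 CPM. Among cKO females mice 1 and 2 stood at 13.4 and 18.5 CPM, and the other 5 lay between 2.27 and 5.74 CPM. The female log2 change was -0.74 (SE 0.63; edgeR, adjusted p = 0.975), and it was 0.90 without Ctrl female 2. The sign of this comparison therefore rested on 1 library.

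The lysyl oxidases oxidise lysines in collagen and elastin so that crosslinks can form. Loxl1 lay between 33.9 and 52.9 CPM in Ctrl males (median 40.3) and between 46.1 and 58.8 CPM in cKO males (median 49.6), and all 7 cKO males lay above the control mean. Its log2 change was 0.29 (SE 0.13), with an unadjusted p of 0.0297 and an edgeR adjusted p of 0.309. Loxl2, which also acts on type IV collagen of basement membranes, lay between 13.7 and 21.4 CPM in Ctrl males (median 16.4). In cKO males it lay in a narrow range from 20.9 to 25.3 CPM (median 21.9), with all 7 above the control mean and 4 above the highest control. The log2 change was 0.40 (SE 0.18), with an unadjusted p of 0.0363 and an edgeR adjusted p of 0.338. Lox, the founding enzyme of the family, was the least abundant of the 3 at 2.58 to 4.82 CPM in Ctrl males and 2.998 to 6.76 CPM in cKO males, with a log2 change of 0.17 (SE 0.19; edgeR, adjusted p = 0.773).

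In females the lysyl oxidases overlapped between genotypes. Loxl1 lay between 23.2 and 40.9 CPM in Ctrl (median 33.9) and between 28.4 and 43.7 CPM in cKO (median 30.5), with a log2 change of 0.10 (SE 0.13; edgeR, adjusted p = 0.985). Loxl2 lay between 13.7 and 28.6 CPM in Ctrl (median 16.0) and between 11.3 and 27.1 CPM in cKO (median 14.9), with a log2 change of -0.25 (SE 0.18; edgeR, adjusted p = 0.975). Only 1 of the 7 cKO females, mouse 1, lay above the control mean of Loxl2. Lox lay between 1.76 and 3.94 CPM in Ctrl and between 2.18 and 3.05 CPM in cKO, with a log2 change of -0.09 (SE 0.21; edgeR, adjusted p = 0.996).

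Osteopontin, a phosphoprotein made by macrophages and injured myocardium, was at the limit of detection. Spp1 had 3 counts or fewer in 21 of the 26 libraries and was listed at 0 in 3 of them. The Ctrl males had 0 to 6 counts each (12 in all), the Ctrl females 1 to 3 (8 in all) and the cKO females 1 to 3 (17 in all). The cKO males had 0 to 34 counts (59 in all), of which mouse 7 gave all but 25. No fold change is given for Spp1 at this depth.

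**Figure D2:**
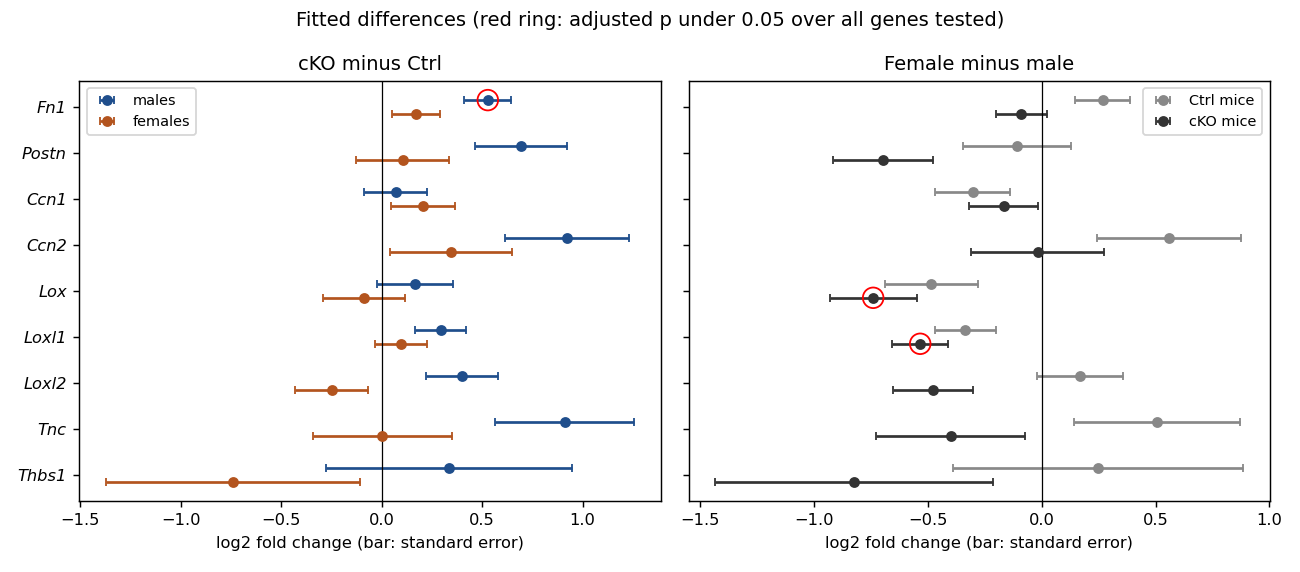
Log2 fold change with its SE for the 9 tested genes, with cKO minus Ctrl in males and in females on the left and female minus male in Ctrl and in cKO on the right, where a red ring marks an edgeR adjusted p under 0.05. All 9 male genotype effects lie above 0 with Fn1 called (0.53), and all 9 sex differences in cKO lie below 0 with Loxl1 (-0.53) and Lox (-0.74) called.

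Counted per mouse, the number of the 9 genes above the control mean of the same sex was 5 to 9 in the 7 cKO males and 0 to 9 in the 6 Ctrl males. Ctrl male 6 had all 9 above the mean of its own group and Ctrl male 1 had 0. In the cKO females the number ran from 0 (mouse 6) to 9 (mouse 1), and in the Ctrl females from 0 (mouse 4) to 8 (mouse 2). The genotypes thus overlapped in both sexes by this count, and the cKO males lacked the low values found in the other groups.

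The genotype effect itself was compared between the sexes, as the female minus the male log2 change. Of the 9 genes 8 had a difference below 0 (median -0.58, against 0.01 over all genes, of which 51.6% lay above 0), and 0 of the 9 were called (edgeR adjusted p = 0.999 for each; also 0 with DESeq2 and limma voom), as were 0.0% of all genes. At an unadjusted p under 0.05, Loxl2 (-0.65, SE 0.26, unadjusted p of 0.0185) and Fn1 (-0.36, SE 0.17, unadjusted p of 0.0398) were lower, where 1.91% of all genes were and 3.96% differed in either direction. Tnc differed by -0.91, Postn by -0.59, Ccn2 by -0.58 and Thbs1 by -1.07, with unadjusted p of 0.0755, 0.0808, 0.193 and 0.236 from edgeR. For the 9 genes a difference between the sexes in the response was therefore not detected after adjustment, and the errors leave room for sizeable ones.

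Sex was also compared within each genotype. These comparisons share their samples with the genotype comparisons and are not independent of them. In cKO, all 9 genes had lower fitted values in females than in males (median -0.48 against 0.01 over all genes, where 51.9% of all genes lay above 0). By an adjusted p under 0.05, 2 of the 9 were called lower, Loxl1 and Lox, where 2.7% of all genes were called in either direction and 1.27% lower. Loxl1 differed by -0.53 (SE 0.12; edgeR, adjusted p = 0.0219), and its 28.4 to 43.7 CPM in cKO females did not overlap the 46.1 to 58.8 CPM in cKO males, a separation seen in 1.09% of all genes in either direction. Lox differed by -0.74 (SE 0.19; edgeR, adjusted p = 0.0335), with all 7 cKO females at 3.05 CPM or less and the lowest cKO male at 2.998 CPM. Postn differed by -0.70 (SE 0.22; edgeR, adjusted p = 0.0855) and Loxl2 by -0.48 (edgeR adjusted p = 0.140), and at an unadjusted p under 0.05 these 4 were lower, where 8.15% of all genes were.

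The Lox call was lost without any of cKO males 2, 5 and 6 or cKO females 2, 4 and 5 (edgeR adjusted p up to 0.0846), and the Loxl1 call without any of cKO male 1 and cKO females 2 and 4 (edgeR adjusted p up to 0.0561). Without cKO female 1, Loxl2 passed at -0.66 (edgeR adjusted p = 0.0200) and Postn at -0.81 (0.0459), and without cKO male 3 Postn passed at -0.80 (0.0446). In Ctrl, 0 of the 9 were called between the sexes by edgeR, DESeq2 or limma voom, where these called 0.638%, 1.65% and 0.82% of all genes. At an unadjusted p under 0.05, Loxl1 (-0.34, unadjusted p of 0.0183) and Lox (-0.49, unadjusted p of 0.0244) were lower in females and Fn1 was higher (0.27, unadjusted p of 0.0367), where 12.1% of all genes differed in either direction. Whether the sex difference of any member differs between the genotypes is the same contrast as the difference between the sexes above, in which none was called.

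To see which genes varied together from mouse to mouse within a group, group means were subtracted from log2 CPM and each of the 36 pairs of the 9 genes was correlated over the 26 mice. Of the 36 pairs 34 had a positive Pearson r (median 0.35), and 11 passed by both Pearson and Spearman (permutation p within groups, adjusted over the 36 pairs). All values of a mouse come from 1 library and share its depth and scaling. The closest pair was Postn and Tnc (r = 0.77, rho = 0.80, adjusted permutation p = 0.00012, r = 0.78 without the 2 mice farthest from the median), the 2 genes whose upstream bases are printed above. The raw permutation p of 1e-05 was the smallest the permutations can give. Loxl1 and Loxl2 followed each other as closely (r = 0.77, rho = 0.78, r = 0.76 without 2 mice, adjusted permutation p = 0.00045).

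Fn1 belonged with Postn (r = 0.66), Tnc (r = 0.61) and Loxl2 (r = 0.53), and Loxl2 with Tnc (r = 0.70) and Postn (r = 0.69), all past the adjusted permutation threshold. Ccn2 and Thbs1 formed another close pair (r = 0.75, rho = 0.80, r = 0.67 without cKO females 1 and 2, adjusted permutation p = 0.00012). The same mice stood high for both: cKO females 1 and 2 among the cKO females and Ctrl female 2 among the Ctrl females. This pair was not apart from the other genes. Ccn2 also passed with Loxl2 (r = 0.58, adjusted permutation p = 0.0205) and Thbs1 with Tnc (r = 0.58, 0.02), as did Postn with Loxl1 (r = 0.59, 0.00576). Ccn1 and Lox passed with no other member. The 2 CCN genes had r = 0.14 with each other (rho = 0.18), and Fn1 had r = 0.13 with Ccn2. The relation of Loxl2 with Thbs1 passed by Spearman (rho = 0.53, adjusted permutation p = 0.0407) and not by Pearson (r = 0.56, 0.0617). Its Pearson r fell to 0.24 without cKO female 1 and Ctrl female 2.

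**Figure D3:**
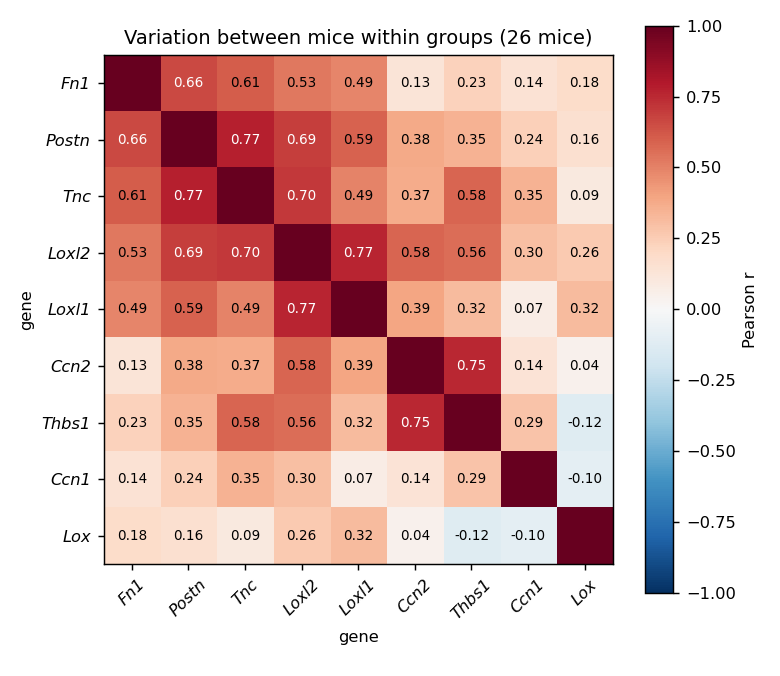
Pearson r of each pair of the 9 tested genes over 26 mice, from log2 CPM with group means subtracted, coloured from negative to positive. Fn1, Postn, Tnc, Loxl1 and Loxl2 hold most of the high values, and the Ccn1 and Lox rows are pale. Ccn2 and Thbs1 have 0.75 with each other, Ccn2 has 0.58 with Loxl2 and Thbs1 has 0.58 with Tnc.

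**Figure D4:**
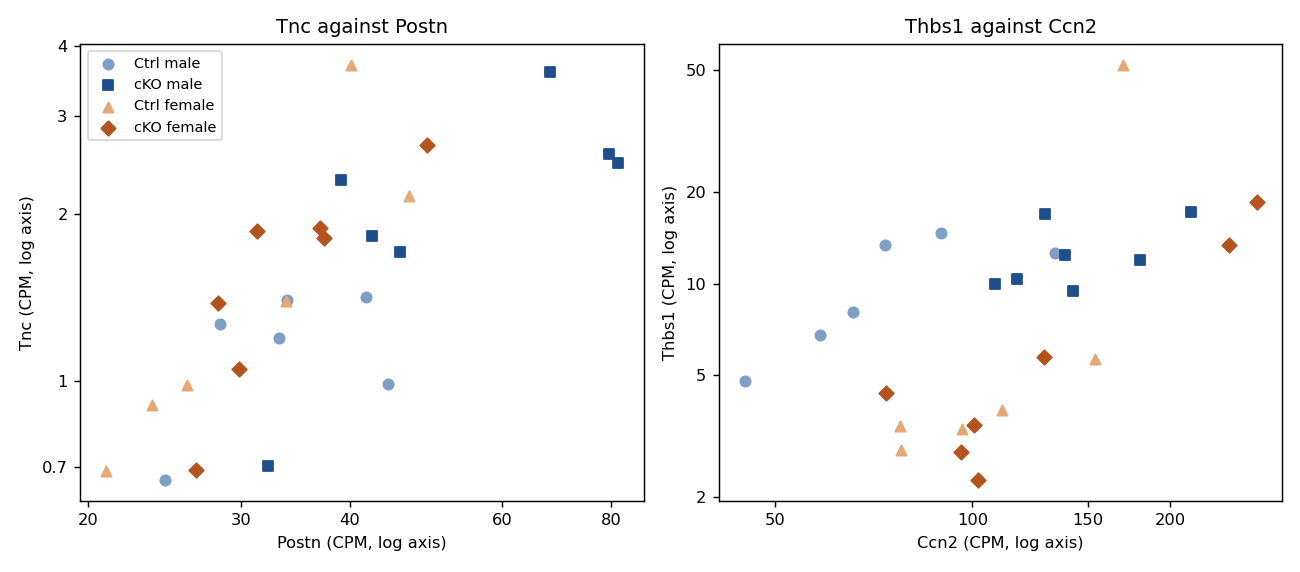
Level of Tnc against Postn and of Thbs1 against Ccn2 in each of the 26 mice, in CPM on log axes, coloured by group. In the second panel cKO females 1 and 2 lie at the upper end for Ccn2 (246.2 and 271.0 CPM) and Ctrl female 2 is highest for Thbs1 (52.1 CPM).

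Of 13260 genes with a mean of at least 1 CPM, those most like each member in this mouse-to-mouse variation were named by Pearson r over the same 26 mice, as a description. Loxl2 lay closest to the collagen genes Col6a2 (0.92), Col3a1 (0.91) and Col6a1 (0.91). Postn lay closest to Mfap5 (0.88), Capg (0.87) and Vcan (0.87), where Mfap5 encodes a microfibril protein and Vcan the proteoglycan versican. Tnc lay closest to Alox5ap (0.86), Col14a1 (0.81) and Vcan (0.78). Of these 3, Col14a1, a fibril-associated collagen, rose in cKO males (0.74 on the log2 scale, edgeR adjusted p = 0.0384). Loxl1 lay closest to Itga11 (0.85), a collagen-binding integrin, Srpx2 (0.83) and Cilp (0.83), and Fn1 to the basement membrane gene Nid1 (0.77), Cd34 (0.75) and Adamts2 (0.75).

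Among the genes named in this way, collagens stood only beside Loxl2 and Tnc. Ccn2 lay close to Dynll1 (0.87) and Otud1 (0.86). Thbs1 lay closest to Slc20a1 (0.94), Maff (0.94) and Ywhaz (0.92), and without Ctrl female 2 these were 0.92, 0.89 and 0.88. Ccn1 and Lox had looser nearest genes: Hspb11 (0.72), Gm45902 (0.69) and Serpinb9 (0.69) for Ccn1, and Mcts2 (0.68), Zbed3 (0.68) and Hells (0.64) for Lox.

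Other genes of the same families were taken as a list of 21, the remaining CCN, thrombospondin, tenascin, lysyl oxidase and similar genes, of which 16 were tested. In males 14 of the 16 lay above 0 (median 0.28), beside 50.3% of all genes, and 7 were higher at an unadjusted p under 0.05 (6.11% of all genes). There 0 were called by edgeR against 2 each by DESeq2 (Tnxb and Thbs3) and limma voom (Comp and Tnxb), which called 3.98% and 1.37% of all genes. In females 11 of the 16 lay above 0 (median 0.14), beside 51.1% of all genes, and 0 were called by any of these tools. At an unadjusted p under 0.05, 3 were higher, beside 419 of the 15357 genes tested. Averaged over the sexes, 2 of the 16 rose, where 0.469% of all genes were called higher. Comp, a thrombospondin of cartilage and fibrous tissue that binds collagen, had group means of 2.22 and 5.27 CPM in Ctrl and cKO males and 2.49 and 4.09 CPM in Ctrl and cKO females, and rose by 0.98 on the log2 scale (SE 0.21; edgeR, adjusted p = 0.0168). Tnxb, tenascin X, had means of 140 and 173 CPM in males and 121 and 146 CPM in females and rose by 0.29 (SE 0.06; edgeR, adjusted p = 0.0136). In males alone Comp was higher by 1.24 (edgeR adjusted p = 0.0505) and Tnxb by 0.31 (0.0748), with Thbs3 at 0.47 (edgeR adjusted p = 0.0912) and Thbs4 at 0.49 (0.134). The Thbs4 value in females was -0.05 (edgeR adjusted p = 0.997).

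Genes that assemble or process this matrix formed a list of 22, with 21 tested. In males 19 of the 21 lay above 0 (median 0.18), 0 were called by edgeR or limma voom against 3 by DESeq2, and 8 were higher at an unadjusted p under 0.05, where 50.3% of all genes lay above 0, 3.98% were called by DESeq2 and 6.11% were higher at an unadjusted p under 0.05. In females 15 of the 21 lay above 0 (median 0.04), beside 51.1% of all genes, and 0 were called by any of these tools. At an unadjusted p under 0.05, 3 were higher, beside 419 of the 15357 genes tested. Averaged over the sexes 3 of the 21 rose, where 0.469% of all genes were called higher: Pcolce2, an enhancer of procollagen cleavage, by 0.32 (SE 0.07; edgeR, adjusted p = 0.0162), the fibulin Fbln1 by 0.29 (SE 0.06, 0.0159), and Bmp1, the procollagen protease, by 0.16 (SE 0.04, 0.0308). Bmp1 lost its call when any of 6 mice was left out (Ctrl male 3, Ctrl females 1, 3, 4 and 5 and cKO female 1, edgeR adjusted p up to 0.0621) or without a filter (0.0730). In males Fbln2 was higher by 0.44 (edgeR adjusted p = 0.0762) and the microfibril gene Mfap4 by 0.88 (edgeR adjusted p = 0.109), and their female values were 0.16 and 0.09.

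All 18 receptors listed for these ligands, integrins and others, were tested. In males 14 of the 18 lay above 0 (median 0.15), where 50.3% of all genes did. By edgeR 1 was called higher, where 0.182% of all genes were: Itgav, the αv integrin subunit, from a mean of 16.2 to 19.9 CPM, by 0.30 on the log2 scale (SE 0.07, adjusted p = 0.0486). That call was lost without any of 12 of the 13 males, all except Ctrl male 6 (edgeR adjusted p up to 0.107), and also without Ctrl males 3 and 6 (0.0746), without a filter (0.0985) and with only the male groups in the fit (0.0645). DESeq2 and limma voom each called 2 of the 18 higher in males, where these tools called 3.98% and 1.37% of all genes. At an unadjusted p under 0.05, 5 were higher in males, beside 6.11% of all genes. In females 13 of the 18 lay above 0 (median 0.05), beside 51.1% of all genes, with Itgav at 0.07 and 0 called by edgeR, DESeq2 or limma voom. At an unadjusted p under 0.05, 1 was higher and 1 lower, beside 5.15% of all genes in either direction. Averaged over the sexes 1 of the 18 (0.469% of all genes) was called, Lrp1. This gene, an endocytic receptor for matrix proteins, rose by 0.30 (SE 0.06; edgeR, adjusted p = 0.0103), from means of 150 and 160 CPM in Ctrl males and females to 191 CPM in both cKO groups. In males alone Lrp1 was higher by 0.35 (edgeR adjusted p = 0.0505), and it was called there by DESeq2 (adjusted p = 0.00596) and limma voom (0.0356). Its female value was 0.26 (edgeR adjusted p = 0.802). The fibronectin receptor subunits Itga5 and Itga8 had male values of 0.21 and 0.32 (edgeR adjusted p = 0.210 and 0.301) and female values of 0.09 and -0.13.

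Textbook target genes of TGF-beta, YAP/TEAD and serum response factor formed a list of 22, all tested. In males 15 of the 22 lay above 0 (median 0.09) and 3 were higher at an unadjusted p under 0.05, beside 50.3% and 6.11% of all genes. In females 11 of the 22 lay above 0 (median 0.00), beside 51.1% of all genes. At an unadjusted p under 0.05, 1 was higher, beside 419 of the 15357 genes tested. In neither sex was any of the 22 called by edgeR, DESeq2 or limma voom. Averaged over the sexes Ptpn14, a phosphatase that binds YAP, rose by 0.18 (SE 0.04; edgeR, adjusted p = 0.0306), a call lost without any of Ctrl male 5, Ctrl females 1 and 4 or cKO female 5 (edgeR adjusted p up to 0.0660). With the offset for length and GC content, Ptpn14, Bmp1, Tnxb and Lrp1 no longer passed in the mean over the sexes (edgeR adjusted p = 0.202, 0.194, 0.130 and 0.0608), nor did Itgav in males (0.113). In males the stress gene Ankrd1 stood at 0.52 (edgeR adjusted p = 0.238), Smad7 at 0.36 (0.355), Crim1 at 0.26 (0.137) and Amotl1 at 0.09 (0.387). Their female values were 0.41, 0.03, 0.15 and 0.02, each with an edgeR adjusted p of at least 0.948.

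Cell type markers were read beside these results, and their part in them was not tested. Over all genes, 50.3% lay above 0 in males and 51.1% in females. In males 6.11% were higher at an unadjusted p under 0.05, and edgeR, DESeq2 and limma voom called 0.443%, 3.98% and 1.37%. In females 419 of the 15357 genes tested were higher at an unadjusted p under 0.05, and these tools called 0.0326%, 0.0586% and 0.026%. The summed level of 10 fibroblast markers ran from 2180 to 2988 CPM in Ctrl males and from 2494 to 2986 CPM in cKO males, with 9 of the 10 above 0 (median 0.17), 0 called by edgeR, 1 each by DESeq2 and limma voom, and 3 higher at an unadjusted p under 0.05. In females the sums ran from 2275 to 2916 CPM in Ctrl and from 2368 to 3205 CPM in cKO, again with 9 of the 10 above 0, 0 called by any of these tools and 1 higher at an unadjusted p under 0.05. The defining fibroblast genes Pdgfra (39.1 and 39.4 CPM in Ctrl and cKO males) and Tcf21 (7.76 and 8.17 CPM) had log2 changes of 0.01 and 0.07. The largest male values of the list were Col1a1 at 0.52 (edgeR adjusted p = 0.0553), Mfap5 at 0.49 (0.167), Col3a1 at 0.35 (0.492) and Col1a2 at 0.32 (0.142). Dpt was the marker below 0 (-0.10, edgeR adjusted p = 0.743). Of 8 markers of activated fibroblasts 7 were tested, and their sum ran from 76.3 to 117.5 CPM in Ctrl males, 85.4 to 127.2 in cKO males, 99.2 to 154.0 in Ctrl females and 83.4 to 151.5 in cKO females. Of these 7, 5 lay above 0 in males and 2 in females. In edgeR 0 were called in either sex, with 3 and 1 higher at an unadjusted p under 0.05. DESeq2 and limma voom each called 1 in males, and not the same gene: Mfap4 by DESeq2 (adjusted p = 0.0306) and Comp by limma voom (0.0356). Both genes also stand in lists above.

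The 9 cardiomyocyte markers summed to 72123 to 80572 CPM in Ctrl males and 63472 to 75162 CPM in cKO males, and to 72446 to 86267 and 68295 to 80901 CPM in Ctrl and cKO females. In males 7 of the 9 lay below 0, and Tnni3 (-0.24, edgeR adjusted p = 0.0316) and Myl3 (-0.20, edgeR adjusted p = 0.0374) fell. Those calls were lost without any of 7 (Ctrl males 1, 4 and 5 and cKO males 1, 2, 5 and 6) and of 12 (all males except cKO male 4) of the 13 males, with edgeR adjusted p up to 0.107 and 0.0991, and both were lost without Ctrl males 3 and 6 (0.0545 and 0.0681). The Myl3 call was also lost without a filter (edgeR adjusted p = 0.0833) and with the offset for length and GC content (0.0996). In females all 9 lay below 0, 0 were called by edgeR, DESeq2 or limma voom, and 1 was lower at an unadjusted p under 0.05. Averaged over the sexes all 9 lay below 0. Myl3 (-0.17, edgeR adjusted p = 0.00965) and Tnni3 (-0.17, 0.0168) were called lower there, where 1.33% of all genes were called in either direction. Both of these calls were kept without any 1 of the 26 mice and in all 9 other alternatives. Macrophage markers summed to 217.8 to 369.5 CPM in Ctrl males and 243.6 to 380.3 CPM in cKO males, and endothelial markers to 1541 to 2291 and 1454 to 1945 CPM, with 0 called in either list by any of the tools and 1 macrophage marker higher at an unadjusted p under 0.05.

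Of 6 atrial genes 3 were tested, and their fold changes lay above 0 in both sexes, where 50.3% of all genes did in males and 51.1% in females. Summed over the list they gave 89.6 to 426.6 CPM in Ctrl males, 129.6 to 741.1 in cKO males, 181.6 to 513.1 in Ctrl females and 329.9 to 859.4 in cKO females. Nppa, the atrial natriuretic peptide gene that stressed ventricle also makes, averaged 220.1 and 488.5 CPM in Ctrl and cKO males and 303.2 and 510.1 CPM in females, with log2 changes of 1.15 and 0.75 (edgeR adjusted p = 0.171 and 0.948). Dkk3 rose in the mean over the sexes by 0.57 (SE 0.14; edgeR, adjusted p = 0.0417), a call lost without any of 18 of the 26 mice (edgeR adjusted p up to 0.0750) and without Ctrl males 3 and 6 (0.0798). It was kept without any of Ctrl male 2, cKO males 1, 3 and 5, Ctrl female 6 and cKO females 2, 3 and 4. Myl4 had log2 changes of 0.04 and 0.13 in males and females. The other 3, not tested, included Myl7 and Sln with group means of at most 0.0355 and 0.05003 CPM, below the 3-count level of every library, and Bmp10 at no more than 0.238 CPM.

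Markers also differed between the sexes in cKO, where Lox and Loxl1 were lower in females. In that comparison 51.9% of all genes lay above 0 and 8.15% were lower at an unadjusted p under 0.05. By edgeR 2.7% were called in either direction and 1.27% lower. Of the 9 cardiomyocyte markers 7 lay above 0, and Myl2 (0.26, edgeR adjusted p = 0.0231) and Tnni3 (0.24, edgeR adjusted p = 0.00821) were higher in females. Of the 10 fibroblast markers 5 lay above and 5 below 0, with Col1a2, a chain of type I collagen, lower in females (-0.40, edgeR adjusted p = 0.0307). Of 7 markers of activated fibroblasts 5 lay below 0, and Fap, a protease of activated fibroblasts, was higher in females (0.48, edgeR adjusted p = 0.0479). All 9 macrophage markers lay below 0 (median -0.21), with 0 called by edgeR, DESeq2 or limma voom and 1 lower at an unadjusted p under 0.05. Between the sexes in Ctrl, 8 of these 9 also lay below 0 (median -0.21), with 0 called by these tools and 1 lower at an unadjusted p under 0.05. Above 0 in Ctrl were 5 of the 9 cardiomyocyte, 5 of the 10 fibroblast and 4 of the 7 activated fibroblast markers, beside 7855 of the 15357 genes tested. The part of the markers in the differences of Lox and Loxl1 was not tested. Leaving out 1 mouse ended the call of Tnni3 in 0 of 14 cases, of Myl2 in 3 (cKO male 6 and cKO females 2 and 4), of Col1a2 in 8 (cKO males 1, 2, 5, 6 and 7 and cKO females 2, 3 and 4) and of Fap in 11 (all except cKO male 3 and cKO females 1 and 6), with edgeR adjusted p up to 0.106. Without a filter Col1a2 (0.0672) and Fap (0.0829) did not pass, nor did Fap with only the cKO groups in the fit (edgeR adjusted p = 0.0508).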

How the data were processed

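Poly-A RNA of 26 mouse left ventricles was sequenced. The values deposited by the authors are whole-number counts of each gene, in 1 matrix. Per the submitters' processing notes, the tools were FastQC 0.74, cutadapt 4.6, STAR 2.7.11a and HTSeq on GRCm39; the annotation and the strand setting are not given in the sources used here. Libraries held 14.4 to 30.9 times 1e6 counts, and every column matched 1 labelled sample. Floors and SEs cover counting error and the spread between samples only.

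Genes were kept by filterByExpr (minimum count 10), TMM scaling was used, and all 26 samples entered 1 model with a mean per group in edgeR 4.0.16 (quasi-likelihood, robust; R 4.3.3). Benjamini-Hochberg adjustment covered the 15357 genes tested, with a threshold of 0.05. SEs were the absolute fold change over the square root of F. The fit was tested on simulated data. Pairwise correlations used log2 CPM (prior count 2), 100000 permutations within groups and 36 pairs, since Spp1 was not tested; 45 had been planned. Transcript lengths came from GENCODE M21 on GRCm38, an older build than that of the files, and promoter sequences from RefSeq (GRCm38.p6). The alternatives were DESeq2 1.42.0, DESeq2 size factors, limma voom (3.58.1), other filters, no robust estimation, the compared groups alone, the replicate number as a block, a length and GC correction, Ctrl males 3 and 6 left out, and each mouse left out.

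Named genes were the 10 members, Ppp2r2a, called genes and the 4 of smallest male p from each list, the 3 genes most like each member (1 of those for Ccn2 is not reported here), and called or defining markers. The members and lists were chosen with earlier results of these data known; 2 family relatives, 2 assembly genes and 4 target genes also stand in another list, and no count over a list is independent evidence. Lists of smooth muscle, pericyte, atrial, epicardial, red blood cell, platelet, adipocyte, lymphocyte and Schwann markers had 0 genes called by edgeR in males or in females; at an unadjusted p under 0.05, 2 atrial genes in males and 1 in females were higher, and DESeq2 called 1 in males. Over 72 pairs of samples of 1 group, chi-square per degree of freedom was 7.41 to 36.5, more than counting error alone gives, so none was the same library counted again. This check cannot tell whether 2 libraries came from the same mouse. Pairs from different groups were not checked.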

Additional observations from a re-analysis of the deposited data

Results flagged for a closer look

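Each of the 10 genes was checked in each of the 4 groups for a sample far from the others (Dixon's criterion on CPM, 40 checks), and 4 were picked out. For normally distributed values chance picks out about 1 in 20 groups. That rate need not hold for CPM on a linear scale, nor for the few counts of Spp1. Thbs1 in Ctrl female 2 stood at 52.1 CPM with the next Ctrl female at 5.68 CPM, a gap of 0.942 of the group's range against a critical value of 0.625. Loxl2 in cKO female 1 stood at 27.1 CPM with the next at 16.2 CPM (0.694 of the range against 0.568). Spp1 in cKO male 7 stood at 1.32 CPM with the next at 0.399 CPM (0.697 against 0.568). Spp1 in Ctrl female 2 stood at 0.146 CPM, which is 3 counts, with the next at 0.0526 CPM (0.877 against 0.625).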

How the results depend on the processing

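The 54 fold changes of the 9 tested members were recomputed 1428 times. Of these, 1354 kept their sign and their side of the threshold, 35 lost a call, 6 gained one and 33 changed sign, 0 of them a called value. The cause of the changes was not tested.

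The number of genes called in males was 68, against 386 with DESeq2, 211 with limma voom, 31 with no filter, 164 at a mean of at least 5 CPM, 15 after the length and GC correction and 7 without Ctrl males 3 and 6. In females it was 5, against 9 with DESeq2, 2 at a mean of at least 5 CPM and 1 with only the compared groups. For the mean over the sexes it was 205, against 525 with DESeq2, 325 with limma voom and 113 with no filter. Between the sexes it was 98 in Ctrl, against 253 with DESeq2, 61 with only the compared groups and 40 without Ctrl males 3 and 6, and 414 in cKO, against 708 with DESeq2, 688 with limma voom and 244 with no filter. With 1 mouse left out at a time it ran from 4 (without Ctrl male 5) to 79 in males, 3 to 7 in females, 96 (without Ctrl male 5) to 349 (without Ctrl female 6) for the mean over the sexes, 54 (without Ctrl male 3) to 114 between the sexes in Ctrl and 163 (without cKO female 4) to 548 in cKO. For the difference between the sexes in the genotype effect it stayed at 0 in every alternative run, with 608 genes at an unadjusted p under 0.05.

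Of the members, 1 was called in males and 0 with no filter, with the length and GC correction or without Ctrl males 3 and 6. In the mean over the sexes 1 was called and 0 with no filter or with the length and GC correction, where Fn1 had edgeR adjusted p of 0.0873 and 0.0931. In both, leaving out 1 mouse gave 0 to 1. Between the sexes in cKO 2 were called, against 4 with limma voom and 1 at a mean of at least 5 CPM, which removes Lox. With 1 mouse left out, 0 were called without cKO female 2 or without cKO female 4, and 4 without cKO female 1. With all mice, limma voom also called Loxl2 (-0.57) and Thbs1 (-1.42) between the sexes in cKO, and DESeq2 called Postn (-0.70, adjusted p = 0.0419).

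A pairing of the samples by the replicate numbers of the labels was not seen in males and was not settled in females. Same-numbered samples of the 2 genotypes had mean correlations of -0.0259 in males and 0.118 in females, against 0.0043 and -0.0186 for other pairs. Of the same-numbered pairs 0 and 3 of 6 were over 0.1, with the highest at 0.404 in females. Only 1 of 6 and 2 of 6 samples correlated best with their own number. Under a block on the number the calls were 75 genes in males, 3 in females, 170 in the mean over the sexes, 98 between the sexes in Ctrl and 361 in cKO. With this block 0 members were called in males (Fn1 0.48, edgeR adjusted p = 0.0579), 0 in the mean over the sexes (Fn1 0.30, 0.0772) and 1 between the sexes in cKO (Lox -0.71, 0.0575, no longer passed). Outside the members, the block also ended the calls of Ptpn14 (edgeR adjusted p = 0.0562), Bmp1 (0.0772) and Dkk3 (0.0989) in the mean over the sexes, of Myl3 in males (0.0518) and of Fap between the sexes in cKO (0.0609).

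In females Tnc was -0.010 with DESeq2 and -0.045 after the length and GC correction, Thbs1 was 0.025 with limma voom, Smad7 -0.10 with limma voom and Amotl1 -0.020 after the length and GC correction. In the mean over the sexes Thbs1 was 0.20 with limma voom and 0.086 with the replicate block, and Amotl1 -0.0077 after the length and GC correction. Between the sexes in Ctrl Thbs1 was -1.06 with limma voom and -0.50 with the replicate block. With 1 mouse left out the female values ran from -1.14 to 0.90 for Thbs1, -0.16 to 0.43 for Tnc, -0.19 to 0.031 for Lox, -0.0056 to 0.24 for Postn, -0.035 to 0.33 for Mfap4, -0.11 to 0.11 for Smad7, -0.14 to 0.031 for Thbs4 and -0.0024 to 0.044 for Amotl1. The values of the mean over the sexes ran from -0.40 to 0.62 for Thbs1, -0.027 to 0.10 for Lox and -0.013 to 0.15 for Loxl2. Thbs1 ran from -1.48 to 0.56 in the difference between the sexes and from -1.39 to 0.46 between the sexes in Ctrl, and Ccn2 from -0.24 to 0.10 between the sexes in cKO. Without the 2 farthest mice, 3 of the 36 correlations moved by 0.2 or more: Loxl2 with Thbs1 to 0.24, Ccn1 with Thbs1 to 0.05 and Ccn1 with Tnc to -0.03. The sign of 3 changed, that of Ccn1 with Tnc, of Postn with Lox (0.16 to -0.03) and of Ccn1 with Loxl1 (0.07 to -0.03), none of which had passed. At this depth Spp1 could not be compared, and Tnc and Lox rested on few counts.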
